A study of Oryza sativa Japonica Group with 6 samples.

Results

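Sucrose synthase mRNAs were examined in the endosperm of rice, the starch-filled tissue of the grain. The family has 7 genes, SUS1 to SUS7, and its members were taken as the rows of the expression table that carry their 7 locus identifiers, out of 29907 mRNA gene rows. All 7 were found in the table. The samples came from the Japonica cultivar NingJing1, collected 10 days after pollination. Plants grown in the field until booting had been moved to growth chambers with a day temperature of 36 °C and a night temperature of 33 °C (high temperature, HT, 3 samples) or with 28 °C in the day and 25 °C at night (normal temperature, NT, 3 samples). The study asked how long non-coding RNAs (lncRNAs) take part in the chalky grain that forms at high temperature. Whether replicates were taken from different plants is not stated, and p-values therefore measure only the spread between these samples, which may be technical.

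Sucrose synthase is a cytosolic enzyme that splits sucrose, in the presence of UDP, into fructose and UDP-glucose, and the reaction is reversible. In cereal grains it is a main entry point of imported sucrose into starch: UDP-glucose is turned into hexose phosphates, these give ADP-glucose, and ADP-glucose is the glucosyl donor of starch synthesis. UDP-glucose is also the donor for cellulose and callose in the cell wall. Invertases cleave sucrose by a different reaction that yields free glucose and fructose.

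At high temperature the most abundant members fell by unequal amounts, so that the make-up of the family differed between the temperatures. SUS3, SUS2, SUS4 and the rare SUS6 fell, while SUS1 did not pass the test and had almost the same level in both groups. Of the 7 members, 5 had a mean of at least 0.5 FPKM over the 6 samples (fragments per kilobase of transcript, scaled to the mapped fragments of the library, the deposited unit) and were tested in a fit across 17050 mRNA genes (limma on log2(FPKM + 1), Benjamini-Hochberg adjusted p under 0.05). Of these 5, 4 were lower in HT, none was higher and 1 did not pass. SUS3 and SUS2 were called lower with a log2 fold change of -1 or below, and both conditions held for 2.34% of all genes tested. Over all genes tested, 22.8% were called lower, 13% higher and 35.8% in either direction. The share of calls that were higher was 36.4% on the deposited scale and 47.1% once libraries were rescaled with the 100 most abundant genes set aside. Across the 5 tested members the median log2 fold change was -0.62, beside -0.08 across all genes tested. In 4 of these 5 members the values of the groups did not overlap, with HT lower, and over all genes tested this held for 32.5% with HT lower and 51.7% in either direction.

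SUS3 (LOC_Os07g42490, chromosome 7), known in rice as an isoform found mainly in the grain, had the highest level of the family in every sample and the largest fall. Its level was 152, 154 and 157 FPKM in the HT samples, against 568, 536 and 538 FPKM in the NT samples. All 3 HT samples lay far below all 3 NT samples, and the 3 values within a group were close to each other. The mean was 154 ± 2.78 FPKM in HT and 547 ± 17.7 FPKM in NT (SD, n = 3 each), so that HT stood at 28.2% of NT. The log2 fold change was -1.82 (standard error 0.036, limma adjusted p = 1.4e-05). Only 100 of the 17050 genes tested, or 0.587%, had a lower log2 fold change. By level, SUS3 ranked 168th among mRNA rows in HT and 54th in NT.

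SUS2 (LOC_Os06g09450, chromosome 6), an isoform known from many rice tissues, was the next in level in both groups. It had 96.7, 93.9 and 97.6 FPKM in the HT samples, against 214, 201 and 202 FPKM in the NT samples. The groups did not overlap, and the HT mean was 46.7% of the NT mean. The mean was 96.0 ± 1.90 FPKM in HT and 206 ± 7.21 FPKM in NT (SD, n = 3 each), a log2 fold change of -1.09 (standard error 0.039, limma adjusted p = 7.3e-05). A lower log2 fold change was found in 507 genes, 2.97% of those tested.

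SUS4 (LOC_Os03g22120, chromosome 3), like SUS3 known mainly from the grain, fell less. Its level was 84.6, 79.8 and 84.7 FPKM in the HT samples, against 128, 121 and 126 FPKM in the NT samples. Again every HT sample was below every NT sample, but by a smaller margin. The mean was 83.0 ± 2.78 FPKM in HT and 125 ± 3.44 FPKM in NT (SD, n = 3 each). The HT mean was 66.3% of the NT mean, and the log2 fold change was -0.59 (standard error 0.042, limma adjusted p = 5.4e-04). Among all genes tested, 11.9% had a lower log2 fold change.

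SUS1 (LOC_Os03g28330, chromosome 3), in rice known from elongating vegetative tissues, was the exception among the abundant members. It had 27.2, 27.5 and 26.8 FPKM in the HT samples, against 25.1, 26.9 and 26.4 FPKM in the NT samples. The ranges of the groups touched, since the highest NT sample lay just above the lowest HT sample. The means were 27.2 ± 0.360 FPKM in HT and 26.1 ± 0.894 FPKM in NT (SD, n = 3 each). The log2 fold change was 0.06 with a 95% interval from -0.05 to 0.16 (limma adjusted p = 0.36). SUS1 was called higher in HT under quantile normalization (log2 fold change 0.18, limma adjusted p = 0.031) and with the 100 most abundant genes left out of the scaling (0.15, limma adjusted p = 0.042), so that a small rise depends on the scaling. A fall of the size seen in SUS4 lies outside the interval.

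The other three members were rare. SUS6 (LOC_Os02g58480, chromosome 2) had 0.84, 0.68 and 0.99 FPKM in the HT samples, against 1.97, 1.63 and 1.85 FPKM in the NT samples. These groups did not overlap either, and the HT mean was 46.1% of the NT mean. Its log2 fold change was -0.62 (standard error 0.093, limma adjusted p = 0.0055), a value that the pseudocount of 1 shrinks at this level, and it was -1.04 with a pseudocount of 0.1. SUS5 (LOC_Os04g24430, chromosome 4) had 0.16, 0.19 and 0.23 FPKM in HT and 0.14, 0.13 and 0.16 FPKM in NT. SUS7 (LOC_Os04g17650, chromosome 4) had 0.09, 0.04 and 0.11 FPKM in HT and 0.09, 0.16 and 0.06 FPKM in NT. Both lay under the minimum for testing, and the values of their groups overlapped. With no minimum on the level, their limma adjusted p was 0.22 and 0.66.

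**Figure D1:**
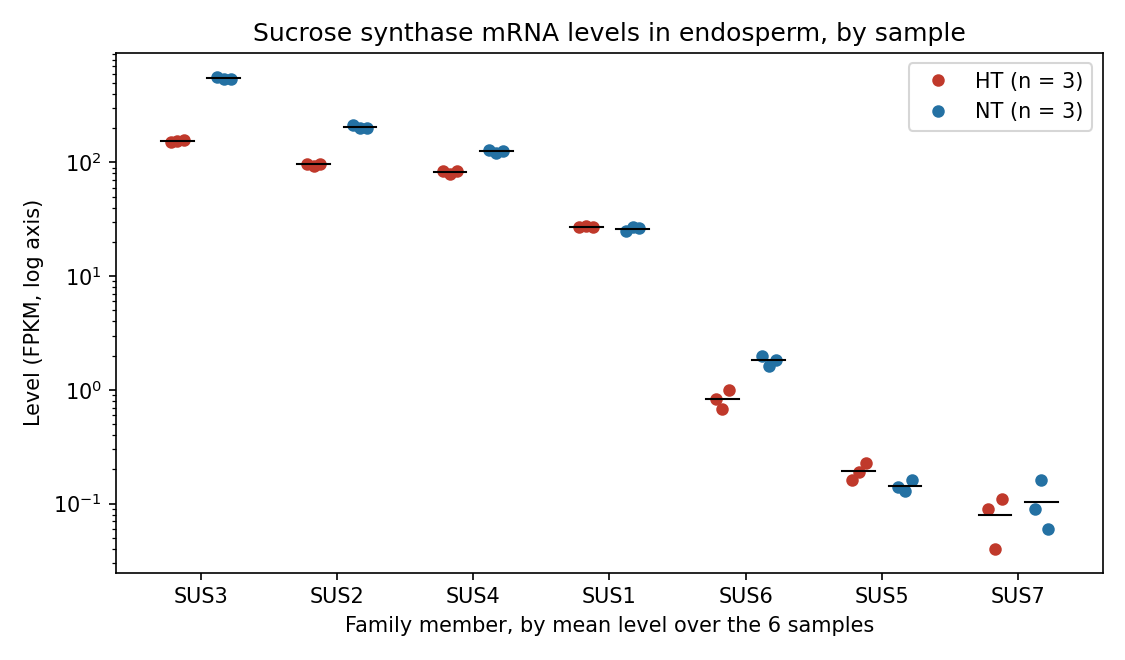
Level of each sucrose synthase mRNA in FPKM (log axis) in the 3 HT and 3 NT samples. Points are samples and black lines are group means; SUS3, SUS2, SUS4 and SUS6 have HT points below all NT points, from 152 to 157 against 536 to 568 FPKM for SUS3, while the points of SUS1, SUS5 and SUS7 overlap.

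The order of the members by level was the same in both groups: SUS3, SUS2, SUS4, SUS1, SUS6, SUS5 and SUS7. FPKM is corrected for transcript length, so that levels can be set beside each other. Neighbours in this order did not overlap in HT, and in NT only SUS5 and SUS7 overlapped. The steps between the leading members were smaller at high temperature. SUS3 exceeded SUS2 1.60-fold in HT and 2.66-fold in NT, and SUS2 exceeded SUS4 1.16-fold in HT and 1.64-fold in NT. In contrast, the step from SUS1 down to SUS6 was 32.5-fold in HT and 14.4-fold in NT. Within groups, the coefficient of variation of the 4 abundant members lay between 1.32% and 3.51%, and NT sample 1 held the highest value of SUS3, SUS2, SUS4 and SUS6 and the lowest of SUS1. Similar sequences can share reads between members, and the sources used here do not say how such reads were assigned.

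Summed over the 7 members, the family was lower in HT. The sum was 361, 356 and 367 FPKM in the HT samples, against 937, 887 and 895 FPKM in the NT samples. Its mean was 362 ± 5.85 FPKM in HT and 906 ± 26.9 FPKM in NT (SD, n = 3 each), so that HT held 39.9% of the NT level. The difference of the log2 sums was -1.33 with a standard error of 0.028, and the exact two-sided permutation test gave p = 0.10, the smallest value that 3 against 3 samples allow. The sum made up 0.0957% of all FPKM in HT and 0.246% in NT. SUS3 accounted for 72.2% of the difference in the family sum, SUS2 for 20.1% and SUS4 for 7.74%. In bulk tissue, fewer cells of a type and less RNA per cell cannot be told apart.

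The share of each isoform in the family sum was compared next. SUS3 held 42.0%, 43.2% and 42.8% of the sum in the HT samples, against 60.6%, 60.4% and 60.1% in the NT samples. Thus SUS3 was the largest part of the family in every sample, but it held more than all other members together only in the NT samples. Its mean share was 42.6% ± 0.606 in HT and 60.4% ± 0.241 in NT (SD, n = 3 each), a difference of -17.7 percentage points with a standard error of 0.376. The share of SUS4 was 23.0% ± 0.498 in HT and 13.8% ± 0.239 in NT, although its own level fell. SUS1, with nearly the same level in both groups, held 7.52% ± 0.221 in HT and 2.88% ± 0.182 in NT.

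SUS2 held 26.6% ± 0.186 of the sum in HT and 22.7% ± 0.121 in NT, but this order depended on SUS3. In a sum without SUS3, SUS2 held 46.3% in HT and 57.3% in NT, a difference of -10.9 points, while SUS4 held 40.0% in HT and 34.9% in NT. SUS6 held 0.231% in HT and 0.200% in NT, and its values overlapped. For SUS6 the difference was 0.031 points and changed sign to -0.103 points without SUS3 in the sum. For SUS1, SUS2, SUS3, SUS4 and SUS5 the HT and NT shares did not overlap. Each of these 5 shares reached p = 0.10 in the exact two-sided permutation test, the smallest possible, and p = 0.14 adjusted over the 7 members, whereas SUS7 had p = 0.20 and SUS6 p = 0.30 in the same exact test. These shares sum to a fixed total and are not independent of each other. SUS5 lay under the minimum for testing, and its own levels overlapped between the groups.

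**Figure D2:**
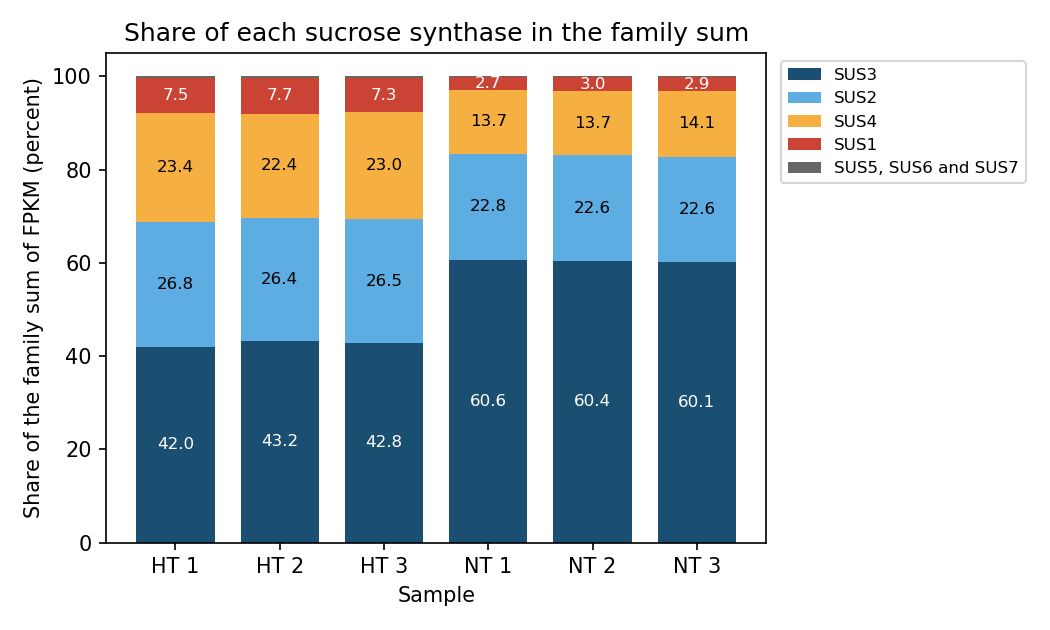
Share of each member in the family sum of FPKM, in percent, for the 3 HT and 3 NT samples, with the value of each of the 4 abundant members printed in its bar. SUS3 fills 42.0% to 43.2% of each HT bar and 60.1% to 60.6% of each NT bar, and SUS4 and SUS1 take a larger part of the HT bars.

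Ratios of members within a sample do not change when that sample is rescaled by a single factor. They test whether members responded by different amounts. The ratio of SUS3 to SUS2 was 1.57, 1.64 and 1.61 in the HT samples, against 2.65, 2.67 and 2.66 in the NT samples. The ratio of SUS3 to SUS1 was 5.58, 5.58 and 5.86 in HT and 22.6, 19.95 and 20.4 in NT, a log2 difference of -1.89 with a standard error of 0.060. For SUS2 against SUS4, both of which fell, the ratio was 1.14, 1.18 and 1.15 in HT and 1.67, 1.65 and 1.60 in NT. In this pair the log2 difference was -0.50 with a standard error of 0.021. All 6 pairs of members with a mean of at least 5 FPKM were compared, and in each the HT and NT samples did not overlap. Every pair had p = 0.10 in the exact two-sided permutation test, the smallest that 3 against 3 samples allow, and p = 0.10 adjusted over the 6 pairs. The 6 ratios are built from the same 4 members and are not independent of each other. By these ratios SUS3 fell most, then SUS2, then SUS4, each relative to SUS1, whose own level did not pass the test.

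**Figure D3:**
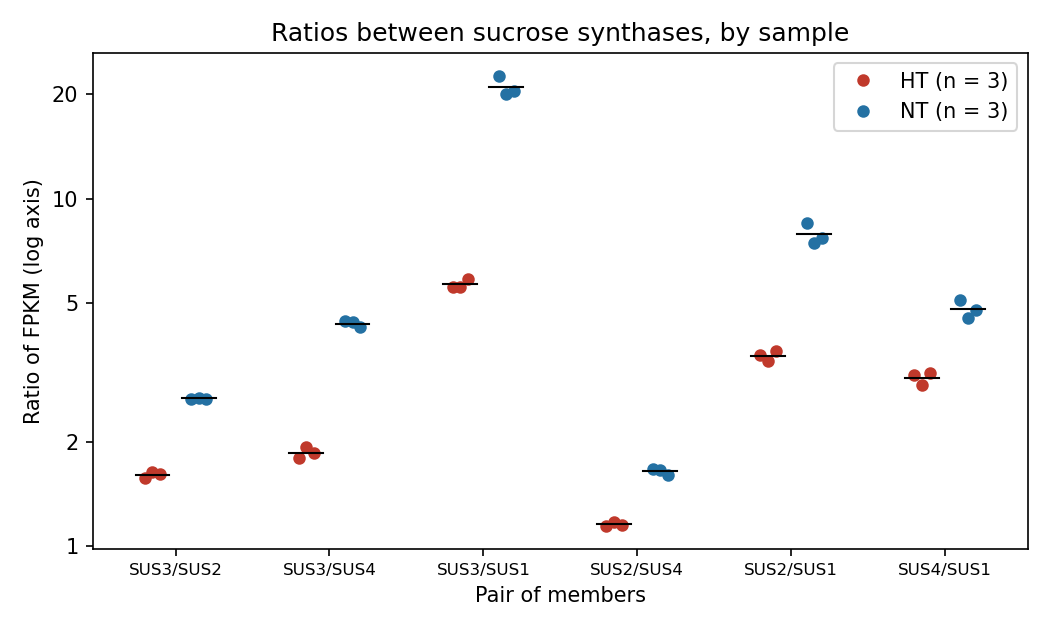
Ratio of the FPKM of 2 sucrose synthases within each sample (log axis) for the 6 pairs of abundant members, HT and NT side by side. Points are samples and black lines are group means; in all pairs the HT points lie below the NT points, most of all for SUS3 over SUS1 (5.58 to 5.86 against 19.95 to 22.6).

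Genes around sucrose synthase in the pathway were described from lists of rice genes, whose counts stand beside 22.8% lower and 13% higher over all genes tested; no test compared the lists with each other or with other genes. Of 11 listed invertases, which also cleave sucrose, 10 had a row and 6 of these lay under the minimum level. Of the 4 tested, 3 fell, none rose and 1 did not pass. Among them CIN2, a cell wall invertase, had 3.04, 3.34 and 3.35 FPKM in the HT samples, against 25.5, 25.7 and 24.5 FPKM in the NT samples. Its log2 fold change of -2.63 (limma adjusted p = 1.5e-05) was larger than that of any sucrose synthase. CYT-INV1, a cytosolic invertase, had 4.21, 4.33 and 3.98 FPKM in HT and 10.0, 5.65 and 10.6 FPKM in NT (log2 fold change -0.87, limma adjusted p = 0.033). That call was lost without any single HT sample, without NT sample 1 and without NT sample 3, and with the replicate number as a block (limma adjusted p from 0.074 to 0.095). With no minimum on the level, 2 of the rare invertases were called higher.

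Enzymes that phosphorylate the released hexoses were counted next. Of 12 listed fructokinases and hexokinases, 10 were tested, 4 fell, 1 rose and 5 did not pass, beside 35.8% called in either direction over all genes tested. The fructokinase FRK2, which acts on the fructose that sucrose synthase releases, had 42.5, 39.98 and 42.5 FPKM in HT, against 67.2, 61.3 and 60.02 FPKM in NT. Its HT mean was 66.3% of NT (log2 fold change -0.58, limma adjusted p = 0.0015). The hexokinases HXK6 and HXK3 had log2 fold changes of -1.02 and -0.87. FRK1 had a log2 fold change of -0.48 (limma adjusted p = 0.022) and did not pass without NT sample 2 or NT sample 3 (limma adjusted p = 0.058 and 0.064). HXK7, named after its values were seen, rose to 3.72 ± 0.561 FPKM in HT, against 1.95 ± 0.0872 FPKM in NT (SD, n = 3 each). Without HT sample 3, 2 members of this list were called higher.

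Of 10 tested genes listed for the path from UDP-glucose to ADP-glucose, 8 fell and none rose, beside 22.8% lower over all genes tested. Their median log2 fold change was -1.39. The list also holds a carrier of ADP-glucose, which is among the 8 that fell. AGPS2, a small subunit of ADP-glucose pyrophosphorylase, had 429, 438 and 444 FPKM in the HT samples, against 1469, 1389 and 1456 FPKM in the NT samples. The groups were far apart, and its log2 fold change of -1.72 was close to that of SUS3. Other genes of this list have no annotation under their symbol in the sources used here and are counted without being named.

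Sucrose phosphate synthases make sucrose. Of 5 tested, 1 rose, none fell and 4 did not pass, beside 13% higher and 22.8% lower over all genes tested. With so few genes these counts do not set the list apart. Their summed level was 52.3 ± 0.819 FPKM in HT and 48.4 ± 2.06 FPKM in NT (SD, n = 3 each). SPS8 had 14.3, 14.6 and 13.9 FPKM in HT and 11.6, 12.1 and 11.97 FPKM in NT (log2 fold change 0.24, limma adjusted p = 0.011). Of 6 sugar transporters tested, 1 rose, 2 fell and 3 did not pass, counts near the shares over all genes tested (13% higher and 22.8% lower). SWEET4 rose to 23.0 ± 0.929 FPKM in HT, against 11.02 ± 2.93 FPKM in NT (SD, n = 3 each), while SWEET14 and SWEET15 had log2 fold changes of -1.69 and -0.45. The sucrose importer SUT1 had 28.7 ± 3.28 FPKM in HT and 30.8 ± 4.31 FPKM in NT and did not pass (log2 fold change -0.09, limma adjusted p = 0.61), with a sign that depended on the scaling.

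Cellulose synthases, which draw on UDP-glucose, fell in 3 of 9 tested members and rose in 1, counts near those same shares of 22.8% lower and 13% higher. CESA8 fell to 51.2 ± 0.433 FPKM in HT, against 80.4 ± 0.605 FPKM in NT (SD, n = 3 each). CESA5 and CESA2 had log2 fold changes of -1.03 and -0.88. CESA1 had 84.4 ± 10.9 FPKM in HT and 111 ± 20.1 FPKM in NT and did not pass (limma adjusted p = 0.12). The member that rose was CESA7, a rare one named after its values were seen, with 0.897 FPKM in HT and 0.430 FPKM in NT. That call (limma adjusted p = 0.037) was lost without any single sample other than HT sample 2, under quantile normalization and with the replicate number as a block (limma adjusted p from 0.061 to 0.098).

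Genes of fermentation were listed because sucrose synthase is known to support sugar use at low oxygen. Of 4 tested, 2 rose and 1 fell, beside 13% higher and 22.8% lower over all genes tested. With so few genes these counts do not set the list apart. The pyruvate decarboxylase PDC1, named after its values were seen, had 4.29, 5.04 and 4.45 FPKM in HT and 0.25, 0.26 and 0.36 FPKM in NT (log2 fold change 2.12, limma adjusted p = 8e-05). PDC2, far more abundant, had 270 ± 18.1 FPKM in HT and 227 ± 4.89 FPKM in NT (SD, n = 3 each), with limma adjusted p = 0.021. It did not pass without any single NT sample (limma adjusted p from 0.051 to 0.070). The alcohol dehydrogenase ADH2 had a log2 fold change of -0.42 (limma adjusted p = 0.011). The more abundant ADH1, named after its values were seen, went the other way but did not pass (limma adjusted p = 0.083). It had 83.0 ± 2.53 FPKM in HT and 60.9 ± 14.7 FPKM in NT (SD, n = 3 each).

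**Figure D4:**
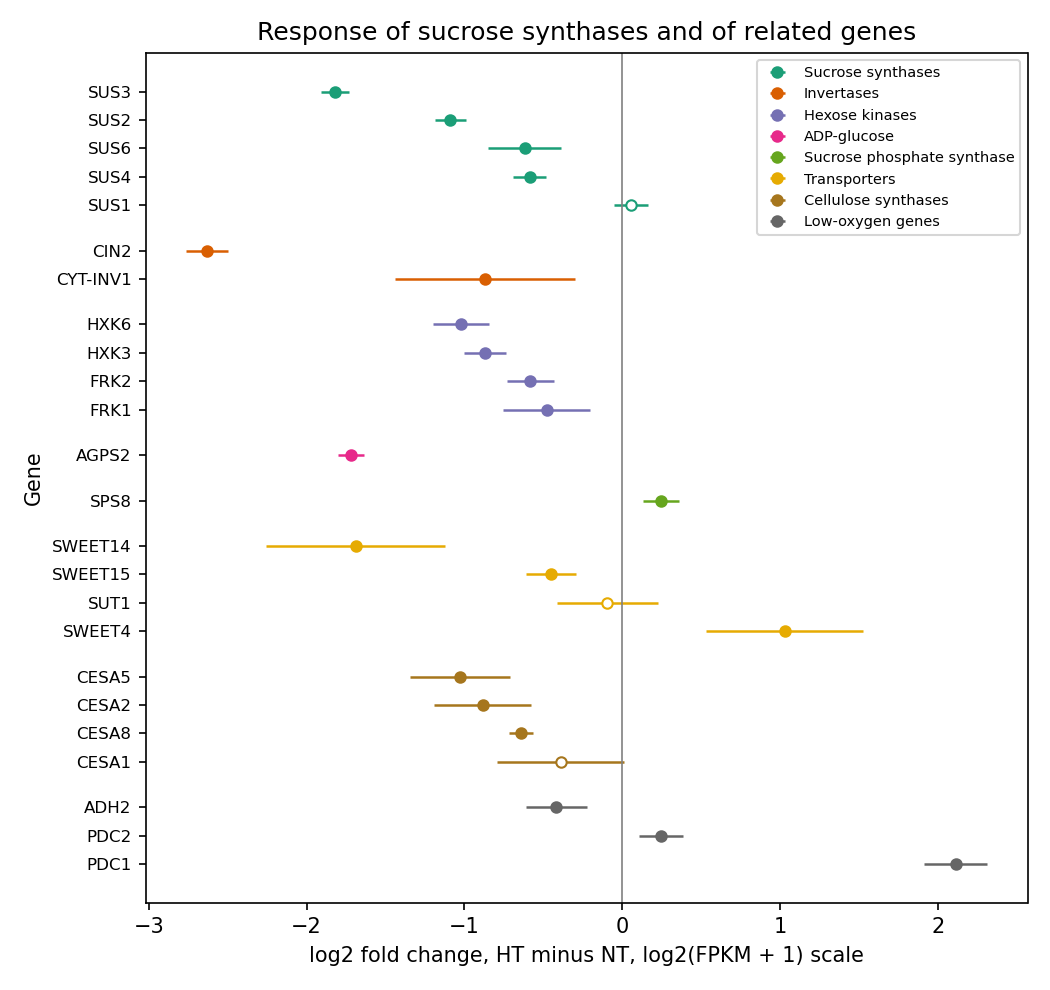
log2 fold change, HT minus NT, on the log2(FPKM + 1) scale for the 5 tested sucrose synthases and for named genes of the pathway lists. Bars are 95% intervals from limma, filled points have an adjusted p under 0.05 and open points do not; SUS3 at -1.82 lies beside AGPS2 at -1.72, SUS4 at -0.59 beside FRK2 at -0.58, and SUS1 is at 0.06.

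The genes whose profile was most like each abundant member were found by the root mean square difference over the 6 samples in log2(FPKM + 1), centred on each gene's own mean, among 6668 other mRNA genes with a mean of at least 5 FPKM. For SUS3 the nearest gene was AGPS2, at 0.056 on the log2 scale. For SUS2 and SUS4 the nearest were LOC_Os10g30162 at 0.023 and LOC_Os07g23110 at 0.011, genes with no name in the sources used here. For SUS1 it was LOC_Os03g62620 at 0.016. Among the listed pathway genes, FRK2 came nearest to SUS4, as the 60th gene at 0.041. That last comparison was chosen after the values were seen, and for SUS3, SUS2 and SUS4 the likeness rests mainly on the difference between the groups.

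Markers of grain tissues were measured in the same samples, and none of those with a row was at 0. All 5 markers of starchy endosperm were present, with a summed level of 44454 to 45530 FPKM in HT and 32420 to 33359 FPKM in NT, most of it from glutelin storage proteins. GBSSI, which makes amylose in the endosperm, had 493 ± 44.3 FPKM in HT and 1380 ± 54.1 FPKM in NT (SD, n = 3 each). It was 1 of 2 markers of this list called lower in HT, while 3 were called higher. Over all genes tested, 22.8% were called lower and 13% higher. The embryo and aleurone markers with a row, 3 of 4 listed, summed to 805, 834 and 840 FPKM in HT and to 152, 611 and 114 FPKM in NT. Of these 3 markers, 2 were called higher in HT, beside 13% of all genes tested. In these sums NT sample 2 stood apart from the other NT samples, and without it the NT sums were 152 and 114 FPKM. A single marker made this difference, with 112, 569 and 74.3 FPKM in NT samples 1, 2 and 3. The other markers of this list had 27.23, 28.35 and 25.84 FPKM, and 12.97, 13.52 and 13.4 FPKM, in the same samples. Without NT sample 2 the log2 fold changes were -1.84 for SUS3, -1.11 for SUS2, -0.61 for SUS4 and -0.67 for SUS6. All 4 were still called lower (limma adjusted p up to 0.014). That fit keeps only the NT samples with sums of 152 and 114 FPKM, so it does not test the part of embryo and aleurone. The 7 green pericarp markers summed to 162 to 202 FPKM in HT and 211 to 257 FPKM in NT. Of these 7 markers, 2 were called lower in HT, near the 22.8% called lower over all genes tested. The nucellus marker had 4.59 to 5.13 FPKM in HT and 4.77 to 5.52 FPKM in NT. The part of these other tissues in the fall of the sucrose synthases was not tested.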

How the data were processed

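Total RNA of 3 HT and 3 NT endosperm samples was depleted of ribosomal RNA and sequenced in pairs, per the labels' protocols. The authors deposited the values as FPKM with 2 decimals and 1 column per sample, per the file headers. Trimming, alignment and assembly software is listed without roles, per the submitters' processing notes: StringTie 1.3.0, HISAT2 2.0.4, FastQC 0.10.1 and cutadapt 1.10. Genome build, annotation and strand use were not given in the sources used here. FPKM summed to between 365035 and 380742 per sample. Values near a whole multiple of a gene's lowest value made up 19.0% to 20.6% (tolerance 0.1), so read counts could not be recovered, the depth stays unknown, and neither count models nor detection limits were applied.

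Rows with a mean of at least 0.5 FPKM over the 6 samples were tested with limma 3.58.1 in R 4.3.3 on log2(FPKM + 1), with a variance trend and no replicate block, two-sided, with Benjamini-Hochberg adjustment over 17050 mRNA genes. Fold changes are on that scale and are too small for genes at low levels. The family sum, the shares and the ratios were tested with exact two-sided permutation tests over samples. The fit was tested on simulated data with known changes. That simulation used independent noise and far fewer changed genes than were called here, so it does not test the scaling of the libraries. Deviations from the group means of samples with the same number did not correlate, so the numbers were not used as pairs. Alternatives were a pseudocount of 0.1, no minimum level, a minimum of 5 FPKM, 3 scalings, the replicate block, leaving out each sample, a family sum without its most abundant member, and a pseudocount of 1 in the ratios.

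The members and lists were chosen with earlier results of these data known. All 7 members are held by the reference gene table (assembly ASM3414082v1) under their symbols, on the chromosome of their identifier. The symbols of the 86 list genes were written by hand from rice nomenclature: 81 have a row and 62 have their symbol or an alias on the right chromosome of that table. By rule the text names up to 4 called genes per pathway list with a group mean of at least 5 FPKM, and CIN2, UGP1, SUT1 and CESA1 whatever their values. Genes that this rule names but the reference does not annotate, UGP1 among them, are counted only. Sequences of the members are not shown here.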

Additional observations from a re-analysis of the deposited data

How the results depend on the processing

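SUS3, SUS2 and SUS4 kept their direction and their call in all 13 alternative settings and SUS6 in all 12 in which it was tested, with limma adjusted p up to 0.024, the highest being for SUS6. Their log2 fold changes ranged from -1.84 to -1.67 for SUS3, from -1.11 to -0.97 for SUS2, from -0.61 to -0.47 for SUS4 and from -1.04 to -0.56 for SUS6. The count of lower members was 4 in each of the settings that tested SUS6. SUS1 was called higher, at 0.18 and 0.15, under quantile normalization and when the 100 most abundant genes were left out of the scaling, which made 1 member higher. The samples share only a replicate number: the correlation of their deviations was -0.017, -0.003 and 0.004 for numbers 1, 2 and 3. With the replicate block 4567 mRNA genes were called, against 6109 without it, and SUS3 had limma adjusted p = 0.0042. With a minimum of 5 FPKM, 3134 of fewer genes tested were called. Leaving out samples gave 4961 to 5137 calls.

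The family sum differed by -1.34 to -1.30 (log2) without single samples. In shares, SUS2 and SUS6 changed sign to -10.9 and -0.103 points when SUS3 was left out of the sum. SUT1 changed sign to 0.044 under quantile normalization and 0.0028 when the 100 most abundant genes were left out of the scaling, and without single samples it ranged from -0.18 (without HT replicate 3) to 0.014 (without NT replicate 2). Rising members were 2 invertases with no minimum level, 0 hexose kinases at a minimum of 5 FPKM and 1 to 2 without single samples, and 1 low-oxygen gene at that minimum and 1 to 2 without single samples. Rising cellulose synthases were 0 at that minimum, under quantile normalization and with the replicate block, 2 when the most abundant genes were left out of the scaling and 0 to 1 without single samples. A higher minimum tests fewer genes; for the other changes the cause was not tested. Depth is unknown, and SUS5 and SUS7 lie too low for a statement.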

Other observations

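Sums over gene lists set the family beside its neighbours in metabolism. The sucrose synthase sum was 30.5, 27.4 and 29.0 times the summed level of the listed invertases in the HT samples, against 21.3, 22.0 and 20.8 times in the NT samples. Over the sum of the fructokinases FRK1 and FRK2 it was 7.53 ± 0.0581 times in HT and 12.6 ± 0.191 times in NT (SD, n = 3 each). Over the sum of the sucrose phosphate synthases it was 6.92 ± 0.0724 times in HT and 18.8 ± 1.27 times in NT. In each of these ratios the groups did not overlap. The ratio of SUS3 to AGPS2 lay between 0.351 and 0.354 in HT and between 0.370 and 0.386 in NT, a narrow range beside the fall of both. AGPS2 was also the gene nearest to SUS3 over these same samples, so the narrow range is no separate result. The ratio of SUS3 to GBSSI differed more, at 0.314 ± 0.0284 in HT and 0.397 ± 0.00301 in NT. These ratios were chosen after the values were seen and were not tested.

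Among 258 lncRNA rows with a mean of at least 1 FPKM, the one most like each abundant member was found by the same measure. For SUS3 it was MSTRG.10854 (chromosome 3, 19124532 to 19125166, build not given in the sources used here), with 0.53, 0.52 and 0.69 FPKM in HT and 5.40, 4.25 and 5.25 FPKM in NT. For SUS2 it was MSTRG.13756 on chromosome 4, with 2.26, 1.60 and 2.01 FPKM in HT and 5.36, 5.96 and 5.49 FPKM in NT. MSTRG.5937 on chromosome 12 came nearest to SUS4 and MSTRG.17932 on chromosome 7 nearest to SUS1. The pseudocount of 1 shrinks changes of such rare lncRNAs, so the likeness holds on that log scale only. In FPKM, MSTRG.10854 fell by a larger fold than SUS3. Its means were 0.58 FPKM in HT and 4.97 FPKM in NT, against 154 and 547 FPKM for SUS3. For SUS3, SUS2 and SUS4 the likeness rests mainly on the difference between the groups, while neither SUS1 (log2 fold change 0.06, limma adjusted p = 0.36) nor MSTRG.17932 (0.12, limma adjusted p = 0.42) passed the test.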
